A study of Mus musculus with 24 samples.

Results

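The nuclear receptors for progesterone, estrogen, glucocorticoid and mineralocorticoid, with the membrane proteins that have been tied to progesterone and estrogen signalling, are followed here in the uterus of the immature mouse. The 7 genes were picked by symbol from a table of 22943 genes. Pgr encodes the progesterone receptor, Esr1 estrogen receptor alpha, Nr3c1 the glucocorticoid receptor and Nr3c2 the mineralocorticoid receptor. Pgrmc1 and Pgrmc2 encode the progesterone receptor membrane components, which are heme-binding proteins of the membrane-associated progesterone receptor family, and Gper1 encodes a G protein-coupled estrogen receptor. All 7 genes passed the filter on low values.

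A steroid receptor of the nuclear kind binds its hormone, leaves a complex with heat shock proteins and acts on genes by binding DNA. In the uterus Pgr is itself a target of estrogen through Esr1, and progesterone acting through Pgr restrains the growth that estrogen drives in the epithelium. The glucocorticoid and mineralocorticoid receptors belong to the same branch of the nuclear receptor family as Pgr and can bind similar DNA elements. The membrane components have no DNA-binding domain of the nuclear receptor type.

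RNA was sequenced from whole uteri of female C57bl/6 mice at 21 days of age. The knockouts, labelled cKO, carried floxed Ctcf alleles and a Cre recombinase expressed from the Pgr gene, so that Ctcf, which encodes a chromatin loop factor, was deleted in cells that had expressed Pgr. The controls, labelled f/f, were littermates with floxed Ctcf and no Cre. Uteri were taken 6 h after an injection under the skin of 0.5 mg progesterone in 0.05 ml sesame oil, or of the oil alone as vehicle. The 4 groups were 4 libraries of knockouts after progesterone, 4 of f/f after progesterone, 8 of knockouts after vehicle and 8 of f/f after vehicle. The libraries carried 2 library identifiers, which the batch correction of the values followed. One, called the mixed batch here, held 4 libraries of each group, and the other, the vehicle-only batch, held the remaining 4 vehicle libraries of each genotype. The floxed Ctcf alleles were common to all 4 groups, while the Cre allele at Pgr was carried by the knockouts alone. Whether that allele was present in 1 or more copies, and how it alters Pgr RNA, the sources used here do not give, so for Pgr itself the Cre allele and the loss of Ctcf cannot be told apart.

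Values are batch-corrected RPKM, where RPKM is reads per kilobase of gene model and per library size, and the authors' correction, as the values themselves show, moved all values of a gene in 1 batch by the same amount. Depth, read from the steps between low values, was about 43700000 to 100000000 reads in the mixed batch and 30200000 to 57500000 reads in the vehicle-only one. Among the vehicle libraries the number 11 in knockouts and the number 1 in f/f uteri occur once in each batch, with the suffixes a and b. Nothing in the labels says that each library is its own animal, and p-values then cover the spread between libraries alone, which may be technical. Ctcf RNA stood at 44.2% of the f/f level in knockouts after vehicle and at 38.3% after progesterone, with no overlap of libraries in either case. Markers of uterine epithelium, stroma and smooth muscle were all present, at 10 of 10 genes tested in each list. Summed RPKM of 10 squamous epithelium markers reached 135 in knockout vehicle library 9 and 66.9 in knockout progesterone library 8, against at most 32.8 in any f/f library. Library 8 was the highest of its group but close to knockout vehicle library 5, at 60.9, which was not set apart. The summed level was higher in knockouts generally, with sums of 19.4 to 66.9 RPKM in knockouts and 7.15 to 9.34 RPKM in f/f uteri after progesterone. After vehicle the medians of the sums were 44.5 RPKM in knockouts and 20.1 RPKM in f/f uteri. Of 7 tested squamous markers 2 were higher in knockouts in each comparison of genotypes, with and without the 5 libraries listed below. Among them was the keratin gene Krt17, higher by 4.61 after progesterone and 3.90 after vehicle on the log2 scale (limma adjusted p = 7.97e-10 and 2.25e-11). The rest of the 7 were not called, and the sums do not show a rise of the whole list. The list's median log2 fold change between genotypes was 1.23 after progesterone and 0.15 after vehicle. That median was 0.23 and −0.03 without 5 libraries that were set apart. These were knockout vehicle libraries 9 and 12, knockout progesterone library 8, f/f vehicle library 3 and f/f progesterone library 7. The part of these markers in the receptor values was not tested. Summed RPKM of 9 oviduct markers reached 311 in knockout vehicle library 12, 501 in f/f progesterone library 7 and 209 in f/f vehicle library 3. Calls of the 7 genes, and of the other genes named with a call, that are lost without these 5 libraries are given both ways.

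Promoter sequences are shown for 4 of the genes whose RNA differed most between treatments or genotypes, so that the letters at their start sites can be read beside the values. Each runs 5′ to 3′ on the plus strand, from 250 bases before to 50 after a RefSeq start (GRCm38.p6), and capitals mark GGTCA or its reverse complement TGACC, the half-site of an estrogen response element. The positions are chr9:8899583-8899882 for Pgr, chr10:4611739-4612038 for the more upstream of the 2 listed Esr1 starts, chr8:76902080-76902379 for Nr3c2 and chr5:139422929-139423228 for Gper1.
Pgr: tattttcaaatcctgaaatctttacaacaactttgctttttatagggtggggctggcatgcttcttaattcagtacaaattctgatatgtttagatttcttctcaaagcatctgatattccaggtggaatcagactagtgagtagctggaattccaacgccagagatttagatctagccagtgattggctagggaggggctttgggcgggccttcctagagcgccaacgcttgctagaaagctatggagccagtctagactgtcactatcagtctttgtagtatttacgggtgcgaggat
Esr1: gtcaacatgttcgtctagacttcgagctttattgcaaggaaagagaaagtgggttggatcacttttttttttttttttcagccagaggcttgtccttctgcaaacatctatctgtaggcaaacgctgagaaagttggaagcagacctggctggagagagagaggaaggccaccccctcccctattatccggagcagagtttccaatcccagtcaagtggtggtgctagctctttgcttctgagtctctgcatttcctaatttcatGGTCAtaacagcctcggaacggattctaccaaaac
Nr3c2: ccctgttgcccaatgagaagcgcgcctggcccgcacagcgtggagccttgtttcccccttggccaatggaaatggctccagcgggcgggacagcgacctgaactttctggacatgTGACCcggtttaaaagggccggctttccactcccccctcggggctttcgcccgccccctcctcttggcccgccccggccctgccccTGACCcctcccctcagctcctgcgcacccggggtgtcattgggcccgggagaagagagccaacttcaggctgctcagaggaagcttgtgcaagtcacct
Gper1: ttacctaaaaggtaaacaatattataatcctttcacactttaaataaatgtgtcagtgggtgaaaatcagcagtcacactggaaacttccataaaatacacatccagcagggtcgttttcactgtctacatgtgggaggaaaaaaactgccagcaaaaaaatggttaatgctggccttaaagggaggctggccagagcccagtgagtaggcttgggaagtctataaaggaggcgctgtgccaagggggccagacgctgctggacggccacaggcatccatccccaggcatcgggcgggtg

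The RefSeq promoter table held 6 of the 7 genes, and Nr3c1 was the one with no entry there. Both strands were searched for 4 motifs. The half-site of the glucocorticoid and progesterone receptors, AGAACA, was found in 1 of the promoters, that of Pgrmc1, starting 228 bases before the start site, and it occurs in 18.97% of 32851 promoters. The half-site GGTCA occurs in 40.5% of promoters, and stood in those of Nr3c2, at 135 and 49 bases before the start, and of Esr1, at base 16 after it. The full palindromes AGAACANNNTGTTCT and GGTCANNNTGACC, each of which contains its half-site, were in no promoter of these genes and are rare everywhere, at 0.00913% and 0.0700% of promoters. The Pgr, Gper1 and Pgrmc2 promoters held none of the 4. These matches describe a window of 300 bases and say nothing of binding.

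The 7 genes covered a wide range of abundance. Per length of gene model, f/f uteri after vehicle held 78.2 ± 7.75 RPKM of Pgrmc1, 49.7 ± 2.91 RPKM of Esr1, 39.5 ± 4.18 RPKM of Pgr and 26.9 ± 2.21 RPKM of Pgrmc2 (SD, n = 8). Nr3c1 followed at 19.7 ± 0.984 RPKM, Gper1 at 5.27 ± 0.577 RPKM and Nr3c2 at 2.38 ± 0.454 RPKM (SD, n = 8). No neighbours in that order overlapped in any of the 8 libraries. By mean level in that group, Pgrmc1 lay at percentile 96.7 of the tested genes, Esr1 at 93.1, Pgr at 90.4 and Nr3c2 at 16.4.

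The order was less clear in the other groups. In f/f uteri after progesterone Pgr lay at percentile 55.9, and its 4 libraries, from 7.68 to 15.5 RPKM, overlapped those of Nr3c1, from 9.44 to 12.4 RPKM. Esr1, from 27.9 to 31.6 RPKM, overlapped Pgrmc2, from 28.1 to 32.2 RPKM, in the same group. In knockouts after progesterone Pgr lay at percentile 62.5 and overlapped Nr3c1 as well. In knockouts after vehicle Pgr, from 16.4 to 27.3 RPKM, overlapped Pgrmc2 above it and Nr3c1 below it. Pgrmc1 was the most abundant of the 7 genes in each of the 24 libraries, and Nr3c2 was the least abundant in the mean of each group.

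**Figure D1:**
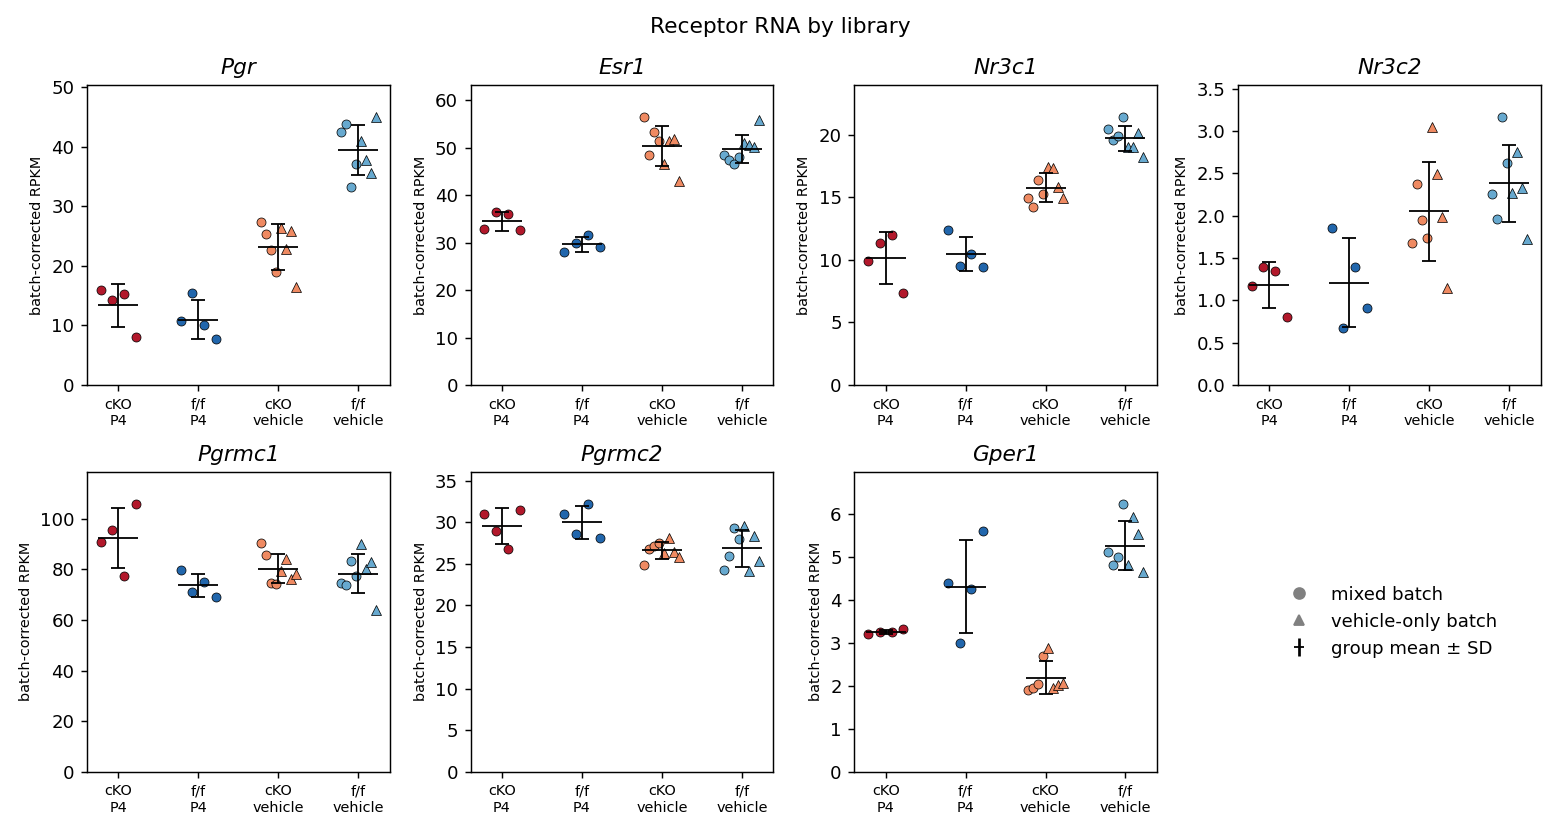
Batch-corrected RPKM of each of the 7 genes in every library, in knockouts after progesterone, f/f after progesterone, knockouts after vehicle and f/f after vehicle, with group mean ± SD; circles are the mixed batch and triangles the vehicle-only batch. Pgr and Gper1 in knockouts after vehicle lie below every f/f vehicle library, and Pgr, Esr1 and Nr3c1 lie lower after progesterone than after vehicle in both genotypes.

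After progesterone the genes of the progesterone, estrogen and glucocorticoid receptors fell in both genotypes, and no change was detected in the membrane component genes. In f/f uteri 4 of the 7 genes fell and 0 rose, where limma called 15.1% of all tested genes lower and 7.84% higher at a Benjamini-Hochberg adjusted p under 0.05. The 4 were Pgr, Esr1, Nr3c1 and Nr3c2. Of all genes called in f/f uteri 34.1% were higher, and 46.5% under quantile normalization. In knockouts 3 genes fell, Pgr, Esr1 and Nr3c1, and 1 rose, Gper1, against 4.66% of tested genes lower and 4% higher. The median log2 fold change of the 7 genes was −0.74 in f/f uteri, against −0.06 over all tested genes, and −0.54 in knockouts, against −0.02. The response differed between genotypes for 2 genes, Pgr and Gper1, both with a positive difference, where 1.46% of tested genes had one and 1.03% a negative one. Without the 5 marker-bearing libraries limma called 1.33% of tested genes higher and 1.38% lower in the knockout response, 4.26% higher and 10.04% lower in the f/f response, and 0.721% positive and 0.523% negative for the difference. The responses in the 2 genotypes use separate vehicle libraries, while each shares its vehicle libraries with the genotype comparison after vehicle.

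Between genotypes after vehicle 3 genes were lower in knockouts, Pgr, Nr3c1 and Gper1, and 0 higher, where 11.5% of tested genes were lower and 13.1% higher. Between genotypes after progesterone 1 gene was higher, Pgrmc1, and 0 lower, where 12.3% were higher and 7.06% lower. Of all genes called after progesterone 63.5% were higher in knockouts, and 52.7% under quantile normalization. The 7 genes' medians were −0.19 after vehicle and 0.01 after progesterone, beside −0.01 and 0.03 over all tested genes. Counted instead by libraries that did not overlap, 3 genes lay lower in knockouts after vehicle over both batches, where 3.63% of tested genes did.

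**Figure D2:**
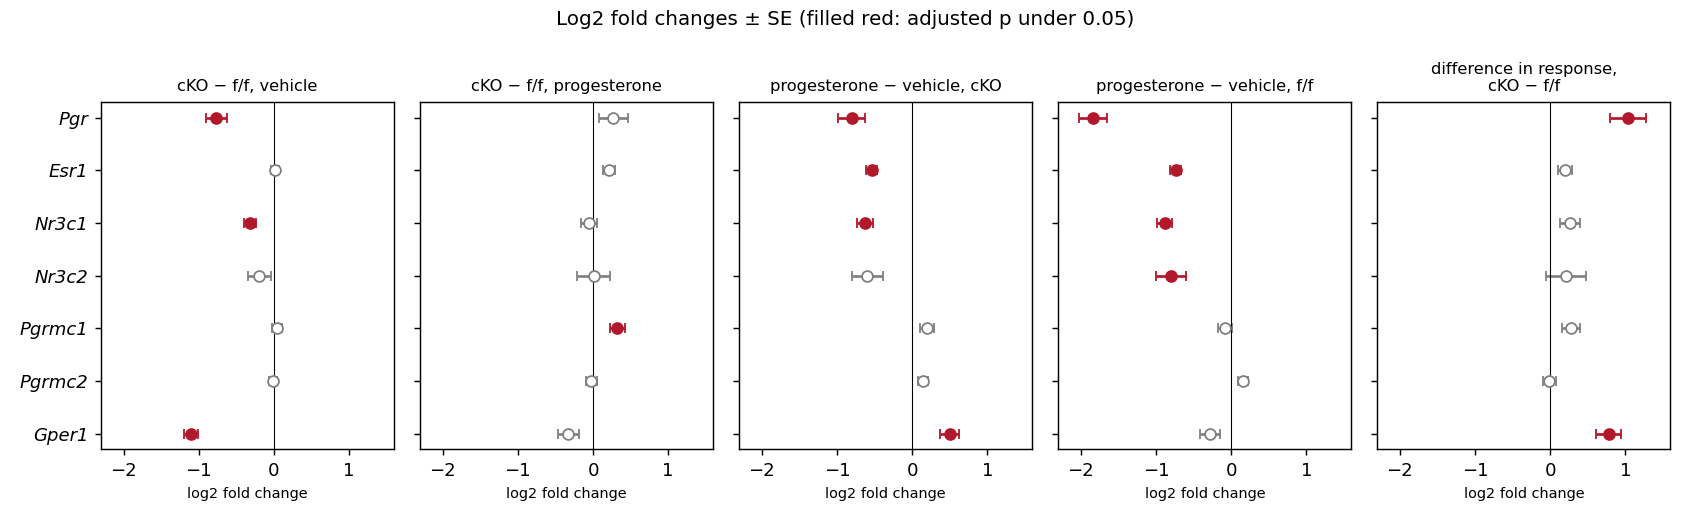
Log2 fold change ± SE of each gene in 5 comparisons: knockout over f/f after vehicle, knockout over f/f after progesterone, progesterone over vehicle in knockouts, progesterone over vehicle in f/f, and the difference of the last pair. Filled red points have an adjusted p under 0.05; the farthest point from 0 is Pgr in the f/f response, at −1.84.

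Pgr, the gene of the nuclear progesterone receptor (chr9:8899833-8968611, plus strand), had the strongest response. After progesterone Pgr was 15.9, 14.3, 15.2 and 8.08 RPKM in knockout libraries 4, 5, 6 and 8. It was 10.8, 15.5, 10.0005 and 7.68 RPKM in f/f libraries 1, 2, 7 and 9. After vehicle it ran from 16.4 to 27.3 RPKM in knockouts, with a median of 24.1 RPKM, and from 33.3 to 45.0 RPKM in f/f uteri, with a median of 39.4 RPKM. Every progesterone library lay below every vehicle library of its own genotype, as for 4.05% of tested genes in knockouts and 9.15% in f/f uteri. Every knockout vehicle library lay below every f/f vehicle library. The genotypes overlapped after progesterone, where the lowest libraries were f/f library 9 and knockout library 8.

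In f/f uteri the Pgr log2 fold change after progesterone was −1.84 ± 0.18 (SE), with a limma adjusted p of 2.09e-07 and rank 18 from the lowest of 14284 tested genes. Within the mixed batch progesterone left 28.0% of the vehicle level, and the exact two-sided permutation p was 0.0286, as small as 4 against 4 libraries allow. In knockouts the log2 fold change was −0.81 ± 0.18 (SE), with a limma adjusted p of 0.00738, and 56.8% of the vehicle level remained in the mixed batch. Without the 5 libraries with oviduct or squamous markers the knockout value was −0.63 and no longer passed, at a limma adjusted p of 0.0855.

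The Pgr response was weaker in knockouts. The difference in response was 1.04 ± 0.24 on the log2 scale (SE, limma adjusted p = 0.0197). It did not pass in the mixed batch alone, where it was 1.00 with a limma adjusted p of 0.0870. Nor did it pass, in limma, without knockout progesterone library 4 (adjusted p = 0.0501), without knockout progesterone library 5 (adjusted p = 0.0580) or without f/f progesterone library 9 (adjusted p = 0.0656), while the value stayed between 0.89 and 1.25 whichever single library was left out. Without the 5 marker-bearing libraries the difference was 1.25 with a limma adjusted p of 0.0114.

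The genotypes started from different levels of Pgr. After vehicle knockouts averaged 23.2 ± 3.84 RPKM and f/f uteri 39.5 ± 4.18 RPKM (SD, n = 8 each), which is 58.8% of the f/f level. The log2 fold change was −0.77 ± 0.14 (SE), with a limma adjusted p of 0.000235, and the exact two-sided permutation p was 0.000155, as small as 8 against 8 libraries allow. Taken by batch, the ratio was 60.1% for the mixed and 57.4% for the vehicle-only libraries, without overlap in either, where 15.2% and 6.11% of tested genes lay lower in knockouts in this way. After progesterone knockouts averaged 13.4 ± 3.60 RPKM and f/f uteri 10.99 ± 3.29 RPKM (SD, n = 4 each). That difference of 2.40 ± 2.44 RPKM (SE) was no larger than the spread between libraries, with a two-sided exact permutation p of 0.371 and a limma 95% interval from −0.14 to 0.68 on the log2 scale. In whole tissue, fewer cells of a type and less RNA per cell cannot be told apart.

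Cell type markers also differed between genotypes. Over all tested genes limma called 11.5% lower and 13.1% higher in knockouts after vehicle, and 7.06% lower and 12.3% higher after progesterone. After vehicle 6 of 10 epithelium markers were lower in knockouts and 2 higher, with a summed level of 306 to 457 RPKM in knockouts and 401 to 615 RPKM in f/f uteri. All 10 leukocyte markers were higher in knockouts, with sums of 260 to 473 RPKM in knockouts and 124 to 202 RPKM in f/f uteri. After progesterone 3 of 10 epithelium markers were higher in knockouts and 0 lower, and again all 10 leukocyte markers were higher, with sums of 195 to 479 RPKM in knockouts and 127 to 221 RPKM in f/f uteri. The epithelium sums after progesterone were 413 to 601 RPKM in knockouts and 374 to 598 RPKM in f/f uteri, and all 10 markers of each list passed the filter on low values. In the response to progesterone 0 of 10 leukocyte markers changed in either genotype, while 4 epithelium markers rose in knockouts and in f/f uteri 1 rose and 2 fell. Of all tested genes 4% rose and 4.66% fell in knockouts, and 7.84% rose and 15.1% fell in f/f uteri. Leaving out the 5 marker-bearing libraries gave 5 epithelium markers lower and 3 higher in knockouts after vehicle, and 8 leukocyte markers higher after progesterone. Among all tested genes 8.78% were then lower and 11.1% higher in knockouts after vehicle, and 4.55% and 9.42% after progesterone. In the responses 2 epithelium markers then rose in knockouts, and in f/f uteri 0 rose and 2 fell. Of 10 stroma markers 2 rose in each genotype, Hoxa10 and Hoxa11, while 3 fell in knockouts and 1, Lum, in f/f uteri. The part of these shifts in the receptor values was not tested.

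Esr1, the gene of estrogen receptor alpha (chr10:4611593-5005614, plus strand), fell after progesterone in both genotypes. After progesterone Esr1 was 32.9, 36.5, 36.0 and 32.6 RPKM in knockout libraries and 27.9, 30.0, 31.6 and 29.1 RPKM in f/f libraries. After vehicle it ran from 42.9 to 56.4 RPKM in knockouts, with a median of 51.3 RPKM, and from 46.5 to 55.7 RPKM in f/f uteri, with a median of 49.3 RPKM. No progesterone library reached the lowest vehicle library. The log2 fold change was −0.54 ± 0.07 in knockouts and −0.74 ± 0.07 in f/f uteri (SE), with limma adjusted p of 6.41e-05 and 1.66e-07. In the mixed batch the level after progesterone was 65.8% of the vehicle level in knockouts and 62.3% in f/f uteri, and the fall was 17.9 RPKM in each. The difference in response was 0.20 ± 0.09 on the log2 scale (SE), with a limma adjusted p of 0.342 and a 95% interval from 0.00 to 0.40. These calls in each genotype held under every alternative run.

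Between genotypes Esr1 depended on the libraries. After progesterone all 4 knockout libraries lay above all 4 f/f libraries, by 4.81 ± 1.28 RPKM (SE), with a two-sided exact permutation p of 0.0286. Of all tested genes 11.8% showed such a split. The fit across genes gave 0.21 ± 0.08 on the log2 scale, which missed the threshold at a limma adjusted p of 0.0555 and passed it in the mixed batch alone, at 0.0274, and without the 5 marker-bearing libraries, at 0.0412. After vehicle the fold change over both batches was 0.01 ± 0.05 on the log2 scale (limma adjusted p = 0.890), which averages over unlike batches. In the mixed batch knockouts stood 4.83 ± 1.72 RPKM (SE) above f/f uteri with no overlap, as did 13.3% of tested genes, at a two-sided exact permutation p of 0.0286. In the vehicle-only batch knockouts stood 3.69 RPKM below f/f uteri, a difference of −3.69 ± 2.48 RPKM (SE), with overlap and a two-sided exact permutation p of 0.286.

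**Figure D3:**
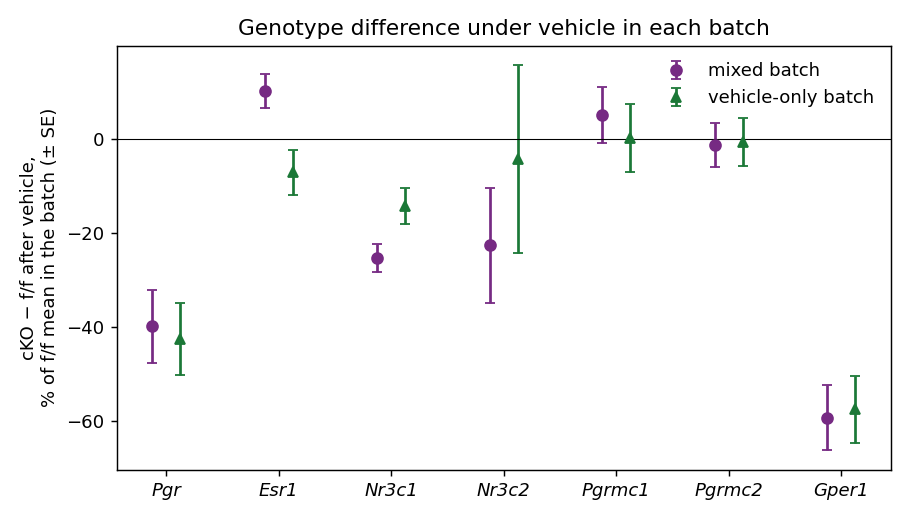
Knockout minus f/f mean after vehicle as a percentage of the f/f mean, ± SE, for each gene in the mixed batch (circles) and the vehicle-only batch (triangles), 4 libraries per genotype in each. Pgr, Nr3c1 and Gper1 lie below 0 in both batches, while Esr1 lies above 0 among the mixed libraries and below it among the vehicle-only ones.

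The ratio of Pgr to Esr1 RPKM sets the progesterone receptor gene against a known regulator of it. The ratio was 0.387 ± 0.101 in knockouts and 0.371 ± 0.110 in f/f uteri after progesterone (SD, n = 4 each), and the genotypes overlapped. After vehicle it was 0.462 ± 0.0684 in knockouts and 0.796 ± 0.0751 in f/f uteri (SD, n = 8 each). There the highest knockout library, at 0.565, stayed below the lowest f/f library, at 0.713. The ratio of Pgrmc1 to Pgr ran the other way. It was 7.64 ± 3.70 in knockouts and 7.11 ± 1.83 in f/f uteri after progesterone, and 3.53 ± 0.587 in knockouts and 2.01 ± 0.360 in f/f uteri after vehicle. These ratios rest on the same values as the levels above and were not tested on their own.

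**Figure D4:**
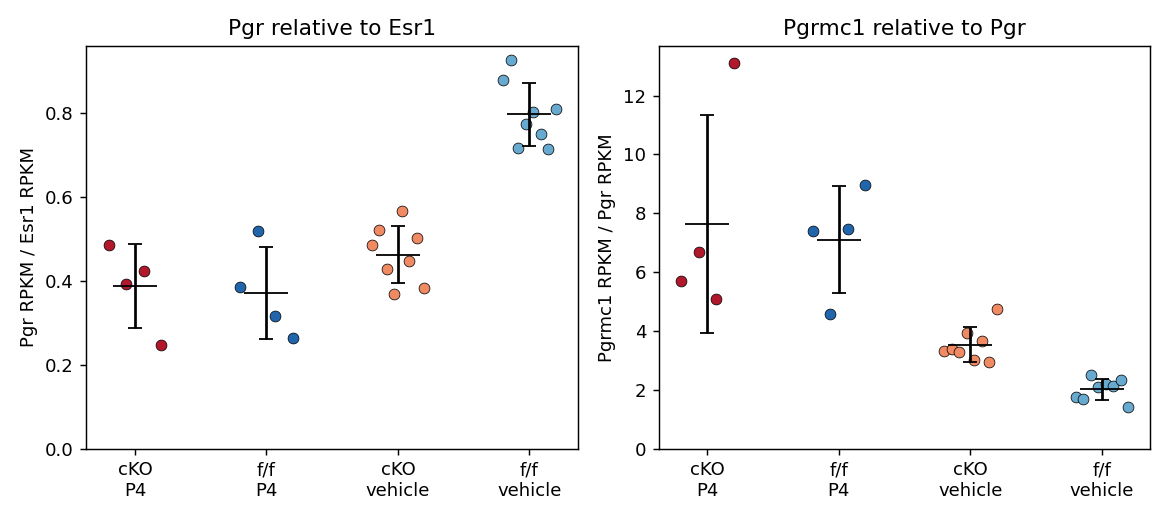
Ratio of Pgr to Esr1 RPKM (left) and of Pgrmc1 to Pgr RPKM (right) in each library by group, with group mean ± SD. After vehicle the knockout libraries lie between 0.368 and 0.565 in the left panel, below all f/f vehicle libraries, and the highest point of the right panel is 13.1, in knockout progesterone library 8.

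Nr3c1, the gene of the glucocorticoid receptor (chr18:39410545-39519421, minus strand), fell in both genotypes and started lower in knockouts. After progesterone Nr3c1 was 9.93, 11.4, 12.005 and 7.34 RPKM in knockout libraries and 12.4, 9.53, 10.5 and 9.44 RPKM in f/f libraries. After vehicle it ran from 14.2 to 17.4 RPKM in knockouts, with a median of 15.5 RPKM, and from 18.2 to 21.4 RPKM in f/f uteri, with a median of 19.7 RPKM. The genotypes overlapped after progesterone and did not overlap after vehicle, and no progesterone library reached a vehicle library. The log2 fold change after progesterone was −0.62 ± 0.10 in knockouts and −0.88 ± 0.10 in f/f uteri (SE), with limma adjusted p of 0.000512 and 2.08e-06. The mixed batch kept 66.96% of the vehicle level in knockouts and 51.5% in f/f uteri. The difference in response, 0.26 ± 0.14 on the log2 scale (SE), was not called, at a limma adjusted p of 0.398 and a 95% interval from −0.02 to 0.54.

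After vehicle Nr3c1 in knockouts was at 80.0% of the f/f level, with a log2 fold change of −0.31 ± 0.08 (SE), a limma adjusted p of 0.00441 and a two-sided exact permutation p of 0.000155. By batch, it was 74.7% for the mixed and 85.7% for the vehicle-only libraries. In the fit of the vehicle-only batch alone the value was −0.22 and did not pass, at a limma adjusted p of 0.181. After progesterone the level in knockouts was 97.1% of that in f/f uteri, with a two-sided exact permutation p of 0.829 and a limma 95% interval from −0.29 to 0.18 on the log2 scale.

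Nr3c2, the gene of the mineralocorticoid receptor (chr8:76899442-77245012, plus strand), was the scarcest of the 7. After progesterone Nr3c2 was 1.16, 1.39, 1.35 and 0.800 RPKM in knockout libraries and 1.85, 0.674, 1.39 and 0.908 RPKM in f/f libraries. Vehicle libraries ran from 1.15 to 3.04 RPKM in knockouts, with a median of 1.97 RPKM, and from 1.72 to 3.16 RPKM in f/f uteri, with a median of 2.30 RPKM. The treatments overlapped in each genotype over both batches and not within the mixed batch. It fell in f/f uteri, with a log2 fold change of −0.80 ± 0.20 (SE, limma adjusted p = 0.00665), which left 48.3% of the vehicle level in the mixed batch. In knockouts the value was −0.59 ± 0.20 (SE), which missed the threshold at a limma adjusted p of 0.0743 and passed it without knockout vehicle library 13, the lowest of its group, at 0.0340. The responses were not shown to differ, with a difference of 0.21 ± 0.27 on the log2 scale (SE), a limma adjusted p of 0.810 and a 95% interval from −0.35 to 0.76. Knockouts after vehicle stood at 86.1% of the f/f level, with a two-sided exact permutation p of 0.223. The pseudocount of 0.5 lowers the fold changes of a gene at this level, and the gene's exons share 247 bases with the opposite-strand gene Gm10649, which was at 0.0471 RPKM in f/f uteri after vehicle.

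The receptors of Nr3c1 and Nr3c2 can both bind glucocorticoid, and the RPKM ratio of their genes overlapped between all 4 groups. It was 8.69 ± 0.437 in knockouts and 9.69 ± 3.36 in f/f uteri after progesterone (SD, n = 4 each), and 8.21 ± 2.28 in knockouts and 8.50 ± 1.43 in f/f uteri after vehicle (SD, n = 8 each). Counted over the mixed batch by libraries that did not overlap, 4 of the 7 genes lay lower after progesterone in knockouts and 4 in f/f uteri, where 7.71% and 21% of tested genes did. These were Pgr, Esr1, Nr3c1 and Nr3c2 in each genotype. Gper1 alone lay higher in this way, in knockouts, where 6.51% of tested genes did.

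Pgrmc1, the more abundant membrane component gene (chrX:36598206-36606079, plus strand), differed between genotypes only after progesterone, and not firmly. After progesterone Pgrmc1 was 90.9, 95.5, 77.5 and 106 RPKM in knockout libraries 4, 5, 6 and 8, and 79.6, 71.2, 74.8 and 68.9 RPKM in f/f libraries 1, 2, 7 and 9. After vehicle it ran from 74.2 to 90.4 RPKM in knockouts, with a median of 78.6 RPKM, and from 64.0 to 89.9 RPKM in f/f uteri, with a median of 78.7 RPKM. After progesterone knockout library 6 lay within the f/f range and the other knockout libraries lay above it. The mean in knockouts was 126% of that in f/f uteri, a log2 fold change of 0.32 ± 0.10 (SE, limma adjusted p = 0.0269), and the exact two-sided permutation p was 0.0571. The call was lost without any of 4 single libraries. The limma adjusted p was 0.0687 without knockout progesterone library 5, 0.0836 without knockout progesterone library 8, 0.0666 without f/f progesterone library 2 and 0.0796 without f/f progesterone library 9. Without the 5 marker-bearing libraries, of which library 8 is one, the value was 0.26 with a limma adjusted p of 0.129.

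No other comparison called Pgrmc1. The log2 fold change after progesterone was 0.20 ± 0.09 in knockouts and −0.08 ± 0.09 in f/f uteri (SE), with limma adjusted p of 0.216 and 0.565. The difference between these responses was 0.28 ± 0.12 (SE), with a limma adjusted p of 0.287 and a 95% interval from 0.02 to 0.54. After vehicle the genotypes differed by 0.04 ± 0.07 on the log2 scale (SE), with a limma adjusted p of 0.736 and a 95% interval from −0.11 to 0.19.

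Pgrmc2, the other membrane component gene (chr3:41066326-41083046, minus strand), was called in none of the 5 comparisons and was among the steadiest of the 7 genes. After progesterone Pgrmc2 was 31.0, 29.0, 26.7 and 31.5 RPKM in knockout libraries and 31.0, 28.6, 32.2 and 28.1 RPKM in f/f libraries. The vehicle libraries ran from 24.9 to 28.1 RPKM in knockouts, with a median of 26.6 RPKM, and from 24.1 to 29.5 RPKM in f/f uteri, with a median of 27.0 RPKM. The mean after progesterone was 111% of the vehicle mean in knockouts and in f/f uteri alike within the mixed batch, with two-sided exact permutation p of 0.114 in each. The log2 fold changes were 0.15 ± 0.07 in knockouts and 0.16 ± 0.07 in f/f uteri (SE), with limma adjusted p of 0.217 and 0.107. The genotypes differed by −0.01 ± 0.05 after vehicle, with a 95% interval from −0.12 to 0.10, and by −0.02 ± 0.07 after progesterone, with a 95% interval from −0.18 to 0.13 (log2 scale, SE, limma).

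The ratio of Pgrmc1 to Pgrmc2 was lowest in f/f uteri after progesterone. It was 3.12 ± 0.239 in knockouts after progesterone and 2.46 ± 0.103 in f/f uteri after progesterone (SD, n = 4 each), where the libraries ran from 2.90 to 3.36 in knockouts and from 2.32 to 2.57 in f/f uteri. It was 3.02 ± 0.295 in knockouts and 2.92 ± 0.234 in f/f uteri after vehicle (SD, n = 8 each), with libraries from 2.696 to 3.63 in knockouts and from 2.53 to 3.32 in f/f uteri. The progesterone libraries did not overlap between genotypes, while the f/f progesterone libraries overlapped the f/f vehicle ones. Taken singly, Pgrmc1 and Pgrmc2 each overlapped between genotypes after progesterone. The ratio rests on the same values and was not tested on its own.

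Gper1, the G protein-coupled estrogen receptor gene (chr5:139423151-139427800, plus strand), showed the sharpest genotype difference of the 7. After progesterone Gper1 was 3.21, 3.26, 3.26 and 3.32 RPKM in knockout libraries 4, 5, 6 and 8, and 4.39, 2.99, 4.27 and 5.62 RPKM in f/f libraries 1, 2, 7 and 9. Vehicle libraries ran from 1.92 to 2.88 RPKM in knockouts, with a median of 2.03 RPKM, and from 4.66 to 6.25 RPKM in f/f uteri, with a median of 5.07 RPKM. Every knockout vehicle library lay below every f/f vehicle library and below every knockout progesterone library, the second of which held for 3.69% of tested genes. In f/f uteri the treatments overlapped.

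After vehicle knockouts held 41.6% of the f/f level of Gper1, a log2 fold change of −1.10 ± 0.10 (SE) with a limma adjusted p of 1.54e-08 and rank 132 from the lowest of 14284 tested genes. By batch, it was 40.7% for the mixed and 42.5% for the vehicle-only libraries. This call held under every alternative run. After progesterone the percentage was 75.5%, and the log2 fold change of −0.33 ± 0.14 (SE) missed the threshold at a limma adjusted p of 0.103. It passed under quantile normalization, at 0.0211, and without f/f progesterone library 2, at 0.0158.

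Gper1 rose after progesterone in knockouts. The log2 fold change was 0.50 ± 0.13 (SE, limma adjusted p = 0.0180), and the mixed batch mean was 151% of the vehicle mean, a gain of 1.10 ± 0.187 RPKM (SE) with a two-sided exact permutation p of 0.0286. In f/f uteri it was −0.28 ± 0.13 (SE), at 81.4% of the vehicle mean in the mixed batch, which did not pass (limma adjusted p = 0.130). The difference in response was 0.78 ± 0.17 on the log2 scale (SE, limma adjusted p = 0.0128), and its call held without any single library. Without the 5 marker-bearing libraries the knockout response was 0.52 with a limma adjusted p of 0.114 and the difference 0.80 with a limma adjusted p of 0.0745. Gper1 lies within the span of 3110082I17Rik, a gene of the opposite strand at 16.7 RPKM in f/f uteri after vehicle, with which it shares 0 exonic bases. The sources used here do not say whether reads were counted by strand.

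The other receptors of these families were mostly scarce. Of 12 listed genes 8 were tested, and Esr2, Esrrb, Esrrg and Paqr9 failed the filter on low values. Esr2, the gene of estrogen receptor beta, was at most 1.14 RPKM in any library. In f/f uteri Paqr8, a membrane progestin receptor gene, and Cyb5d2, of the same protein family as Pgrmc1, fell after progesterone, by 0.49 and 0.41 on the log2 scale with limma adjusted p of 0.00142 and 0.0390.

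The membrane progestin receptor genes Paqr5 and Paqr6 differed by genotype. Paqr5 averaged 0.616 RPKM in knockouts and 1.90 RPKM in f/f uteri after vehicle (log2 fold change −1.09 ± 0.14, SE, limma adjusted p = 2.15e-06), and its response differed between genotypes by 0.89 ± 0.24 (SE, limma adjusted p = 0.0441). Paqr6 was higher in knockouts after progesterone (0.91 ± 0.25, SE, limma adjusted p = 0.0116) and after vehicle (0.67 ± 0.17, SE, limma adjusted p = 0.00650). Without the 5 marker-bearing libraries limma gave adjusted p of 0.0699 for Paqr6 after progesterone, 0.1505 for the Paqr5 difference in response and 0.0563 for Cyb5d2 in the f/f response. Paqr7, Nenf and Esrra were called in no comparison. The median log2 fold change of the 8 tested genes in the f/f response was −0.33, against −0.06 over all tested genes.

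Chaperones hold steroid receptors ready for hormone. Of 13 tested chaperone genes, 1 rose after progesterone in each genotype and 0 fell. Of all tested genes 4% rose and 4.66% fell in knockouts, and 7.84% and 15.1% in f/f uteri. The chaperone gene that rose in both was Fkbp5, a cochaperone which is itself induced by steroid receptors. Its log2 fold change was 1.78 ± 0.35 in knockouts and 2.39 ± 0.35 in f/f uteri (SE, limma adjusted p = 0.00244 and 3.99e-05). Bag1, another cochaperone, was the only one called between genotypes, higher in knockouts by 0.37 after progesterone and by 0.25 after vehicle on the log2 scale (limma adjusted p = 0.00728 and 0.00782). Of all tested genes 12.3% were higher in knockouts after progesterone and 13.1% after vehicle. Without the 5 marker-bearing libraries the limma adjusted p was 0.0502 for Fkbp5 in knockouts and 0.0558 for Bag1 after progesterone. The list's median was 0.00 in the knockout response and 0.08 in the f/f response, against −0.02 and −0.06 over all tested genes.

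Many known targets of the receptors rose after progesterone, in lists that were chosen with earlier results of these data known. The counts here and in the next paragraphs describe those lists and are no test of receptor action. Of 24 tested progesterone-responsive genes, 12 rose and 2 fell in knockouts, and 12 rose and 1 fell in f/f uteri. When the 5 marker-bearing libraries were left out, 5 of 23 rose and 0 fell in knockouts, and 10 rose and 1 fell in f/f uteri. Over all tested genes limma called 4% higher and 4.66% lower for knockouts, and 7.84% and 15.1% for f/f uteri. The list's median log2 fold change was 0.65 in knockouts and 1.18 in f/f uteri, against −0.02 and −0.06 over all tested genes. Areg, which encodes the growth factor amphiregulin, rose by 1.49 ± 0.14 in knockouts and by 3.84 ± 0.14 in f/f uteri (log2, SE), with limma adjusted p of 8.44e-07 and 2.31e-14. Il13ra2, the gene of an interleukin-13 receptor, rose by 3.16 and 3.58. For 5 of the 24 genes the response differed between genotypes, all with a smaller value in knockouts, among them Areg (−2.35 ± 0.19), Fst (−2.67 ± 0.31), which encodes follistatin, and Hsd11b2 (−2.24 ± 0.31), the enzyme gene that inactivates glucocorticoid (log2, SE, limma adjusted p of 9.23e-08, 2.32e-05 and 0.000197). Pgr, which fell after progesterone, had a positive difference in the same test, so its fall was the smaller one in knockouts.

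Between genotypes after vehicle 7 progesterone-responsive genes were lower in knockouts and 4 higher, and after progesterone 12 were lower and 2 higher, or 8 and 2 without the 5 marker-bearing libraries. Over all tested genes 11.5% were lower and 13.1% higher after vehicle, and 7.06% and 12.3% after progesterone. Without the 5 libraries the shares after progesterone were 4.55% and 9.42%. With all libraries the list's medians were −0.24 and −0.78, against −0.01 and 0.03 over all tested genes. The lowest adjusted p belonged to Wnt11, a WNT ligand gene, after vehicle (log2 fold change −2.42 ± 0.26, SE, limma adjusted p = 2.58e-07) and to Fst after progesterone (−3.81 ± 0.25, SE, limma adjusted p = 5.86e-10).

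Of 19 tested glucocorticoid-responsive genes, 7 rose in knockouts and 11 in f/f uteri after progesterone, and 0 fell in either, beside the 4% and 7.84% of all tested genes that were higher. The counts were 2 in knockouts and 7 in f/f uteri without the 5 marker-bearing libraries. Their median log2 fold change was 0.43 in knockouts and 0.72 in f/f uteri, against −0.02 and −0.06 over all tested genes. Sgk1, a kinase gene induced by both corticosteroid receptors, rose by 1.83 ± 0.23 in f/f uteri (log2, SE, limma adjusted p = 4.23e-06). The metallothionein genes Mt1 and Mt2 rose by 1.63 and 2.19 in knockouts, with limma adjusted p of 2.04e-05 and 0.000167. None of the 19 was called for a difference in response. At an unadjusted limma p under 0.05 the count was 4 of 19, or 21.1%, beside 14.2% of all tested genes. Of 9 tested mineralocorticoid-responsive genes, 6 rose in knockouts and 5 in f/f uteri, and 0 fell, with medians of 0.85 and 0.72. These counts became 3 in knockouts and 4 in f/f uteri without the 5 marker-bearing libraries. Scnn1a, the gene of a sodium channel subunit, rose in knockouts by 1.73 ± 0.25 (log2, SE, limma adjusted p = 0.000160), and its response was larger there by 1.69 ± 0.33 (limma adjusted p = 0.00497, and 0.0501 without those 5 libraries). Several genes, such as Fkbp5 and Sgk1, stand in more than 1 of these lists, so the counts are not separate.

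The estrogen-responsive list, which holds Pgr and Esr1 themselves, was mixed. After progesterone 4 of 18 tested genes fell and 1 rose in knockouts, and 7 fell and 4 rose in f/f uteri, beside shares over all tested genes of 4.66% lower and 4% higher for knockouts, and of 15.1% and 7.84% for f/f uteri. With the 5 marker-bearing libraries left out 3 fell and 0 rose in knockouts, and the f/f counts stayed at 7 and 4. The medians were −0.37 in knockouts and −0.30 in f/f uteri, against −0.02 and −0.06 over all tested genes. Inhbb, the gene of an activin and inhibin subunit, fell by 2.43 ± 0.49 in knockouts (log2, SE, limma adjusted p = 0.00305). Wnt7b, a WNT ligand gene, fell by 1.54 ± 0.24 in f/f uteri (log2, SE, limma adjusted p = 7.65e-05). Wnt7b was higher in knockouts both after progesterone (2.89 ± 0.26) and after vehicle (1.75 ± 0.18). For Igf1, which encodes an insulin-like growth factor, the difference in response was −0.95 ± 0.23 (log2, SE, limma adjusted p = 0.0243).

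Genes with the most similar pattern over the 24 libraries were named for each receptor gene called in some comparison, by the smallest root-mean-square difference of centred log2 values among 9677 genes. For Pgr these were Angpt1 (0.354), Ptprd (0.363) and Tmtc2 (0.375), beside a root-mean-square of 0.748 for Pgr itself. For Esr1 they included Man1a (0.122) and Farp1 (0.136), beside 0.318 for Esr1. For Nr3c1 they were Slc8a1 (0.172), Ptprd (0.180) and Sema6d (0.186), beside 0.406, so Ptprd was near both Pgr and Nr3c1. For Nr3c2 the nearest was Plekha6 (0.163, beside 0.439), for Pgrmc1 Dazap2 (0.0835, beside 0.155) and for Gper1 Fcsk (0.211, beside 0.495). Angpt1, the ligand of an endothelial receptor, averaged 3.45 RPKM in knockouts and 2.60 RPKM in f/f uteri after progesterone, and 7.22 RPKM in knockouts and 9.32 RPKM in f/f uteri after vehicle, the same order of groups as Pgr. Anpep, the second nearest to Gper1 and the gene of an aminopeptidase, averaged 114 RPKM in knockouts and 137 RPKM in f/f uteri after progesterone, and 86.3 RPKM in knockouts and 173 RPKM in f/f uteri after vehicle.

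Single libraries stood at the edge of several genes at once. Knockout progesterone library 8, which carries squamous markers, was the lowest of its group for Pgr, Esr1, Nr3c1 and Nr3c2 and the highest for Pgrmc1, Pgrmc2 and Gper1. Knockout vehicle library 13 was the lowest of its group for Pgr, Esr1 and Nr3c2. Dixon's test flagged no library in the 28 sets of libraries, 7 genes in 4 groups. In sets of 4 libraries it can flag little, so this does not show that no library stood apart. Pgr in knockout progesterone library 8, at 8.08 RPKM beside 14.3 to 15.9 RPKM in the rest of its group, was not flagged. Gper1 in knockouts after progesterone had the narrowest spread of the 28, at 3.26 ± 0.0437 RPKM (SD, n = 4), which is 1.34% of its mean, and Nr3c2 in f/f uteri after progesterone the widest, at 43.5%.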

How the data were processed

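RNA of 24 mouse uterus libraries was sequenced. The deposited table gives RPKM by gene after a batch correction by the authors, in which 6.66% of the values lie below 0, so its unit is neither counts nor plain RPKM. The test had been planned for plain RPKM and was kept. The submitters' processing notes name cutadapt 2.7, TopHat, Partek and the build mm10. Which tools counted reads and corrected batches, with which gene models and whether by strand, was not given in the sources used here. A correction by a constant per gene and batch keeps differences within a batch and changes ratios, most in genes near 0.

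Values below 0, which made up 0.297% of tested values, were set to 0. A gene was tested at 1 RPKM or more in at least 4 libraries, which left 14284 genes. limma 3.58.1 (R 4.3.3) fitted log2(RPKM + 0.5) on the 4 groups and batch, with eBayes (trend, robust), 19 residual and a median of 3.34 prior degrees of freedom. Two-sided p-values were adjusted by Benjamini-Hochberg over the 14284 genes, with a threshold of 0.05. The scripts were tested on simulated data. Single genes were compared in RPKM by exact two-sided permutation tests, unadjusted. A fold change of log2(RPKM + 0.5) understates the change of low genes.

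The 7 genes and the gene lists were chosen with earlier results of these data known. The text names all 7 genes, and of each other list up to 3 called genes per comparison with the smallest adjusted p, except 1 gene that is not reported here; Nenf, Esrra, Paqr7, Esr2, Esrrb, Esrrg and Paqr9 are named to account for a family, and knockout vehicle library 13 was singled out after its values were seen. Among the marker lists, 3 of 10 endothelium markers were higher in knockouts after vehicle and 1 after progesterone, 1 of 10 smooth muscle markers was lower in each, and 3 of 10 stroma markers were lower after vehicle and 2 after progesterone. Beside these, limma called 13.1% of all tested genes higher and 11.5% lower after vehicle, and 12.3% and 7.06% after progesterone. Of 10 ovary markers 1 passed the filter on low values, and of 9 tested adipose markers 0 were called by limma between genotypes or treatments. Alternatives were other pseudocounts, filters, quantile normalization, library weights, single batches, a replicate block, no batch term and libraries left out. Depth was read from the steps between low values and is approximate. Coordinates of genes come from GENCODE M21 (GRCm38).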

Additional observations from a re-analysis of the deposited data

Results flagged for a closer look

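The response of Pgr to progesterone differed between genotypes, with a log2 difference of 1.04 (knockout minus f/f, limma interaction, adjusted p = 0.0197). The fall was smaller in the knockouts, whose vehicle level was also the lower one. The call was lost in 3 of the 24 fits that left out 1 library, in the mixed batch alone and with a replicate block. For Pgr the Cre allele and the loss of Ctcf cannot be told apart.

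The response of Gper1 differed as well, with a log2 difference of 0.78 (knockout minus f/f, limma interaction, adjusted p = 0.0128). Gper1 rose in knockouts and had a negative change that did not pass in f/f uteri.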

How the results depend on the processing

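The 3 genes lower in knockouts after vehicle were called in each of the 24 fits that left out 1 library, and the counts called were 4 to 5 for the response in knockouts and for that in f/f uteri. After progesterone 1 gene was called between genotypes. That count was 2 under quantile normalization, in the mixed batch alone and with no batch term, 4 with weights per library, 0 with a replicate block and 0 to 2 when 1 library was left out. The 4 genes called in the knockout response were 2 with a replicate block and 2 without the 5 libraries with oviduct or squamous markers. The 2 genes whose response differed were 1 in the mixed batch alone, 1 without the 5 libraries, 5 with weights per library, 0 with a replicate block and 1 to 2 when 1 library was left out. Over all tested genes the calls were 3516 between genotypes after vehicle, 2767 after progesterone, 1238 in the knockout response, 3280 in the f/f response and 355 for the difference in response. Moves over 1.5 times were to 6500, 7123, 5965, 6276 and 4122 in that order with weights; after vehicle to 2293 with the 5 RPKM filter and 1085 in the vehicle-only batch; after progesterone to 822 with a replicate block; in the knockout response to 162 with the block, 1909 with no batch term and 383 without the 5 libraries; in the f/f response to 2022 without the 5; and for the difference to 236 with the 5 RPKM filter, 26 with the block, 176 without the 5 and 204 to 715 when 1 library was left out. The 5 RPKM filter left 10689 tested genes, against 14284 in the main fit, so its counts are out of fewer genes. Counts of the other gene lists without the 5 libraries were added after the data were seen. Same-numbered libraries had correlations of their deviations from −0.342 to 0.544, so the numbers were not shown to pair them.

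Signs turned only for values that were never called. For Esr1 after vehicle the log2 fold change was −0.11 in the vehicle-only batch, −0.0072 with a replicate block, −0.036 without the 5 libraries and −0.012 to 0.048 when 1 library was left out. For Nr3c1 after progesterone it was 0.15 with weights, 0.089 without the 5 libraries and −0.14 to 0.085 when 1 was left out. For Nr3c2 it was 0.027 with a replicate block after vehicle, and after progesterone −0.14 under quantile normalization, −0.20 with a replicate block and −0.15 to 0.18 when 1 was left out. Its difference in response was −0.23 with a replicate block. For Pgrmc1 after vehicle it was −0.0025 to 0.072 when 1 was left out. For Pgrmc2 after vehicle it was 0.0039 under quantile normalization, 0.012 with a replicate block, 0.069 with weights, 0.011 without libraries 1a and 11a, 0.015 without the 5 libraries and −0.033 to 0.011 when 1 was left out. For Pgrmc2 after progesterone it was 0.0025 under quantile normalization and −0.053 to 0.025 when 1 was left out, and its difference in response was −0.043 to 0.035. The cause of these shifts was not tested. The table gives no counts, and the counting error of Nr3c2 and Gper1, the scarcest genes, was not estimated.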
